A study of Mus musculus with 11 samples.

Results

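Transcripts of 8 enzymes of haem synthesis and of the mitochondrial glycine carrier were followed in bulk RNA-seq of sorted mouse cells. The 9 genes were Alas1, Alas2, Slc25a38, Alad, Uros, Urod, Cpox, Ppox and Fech. They were taken by symbol, through the Ensembl gene ID, from the 53700 genes of the count table. That look-up uses no measured value, but the list was chosen with earlier results of these data known. Counts of the 9 beside all genes are therefore descriptions. All 9 passed the filter on low counts, which kept 16639 genes. The libraries came from cells of C57BL/6j mouse bone marrow labelled ST-HSC, the short-term haematopoietic stem cell, a progenitor that rebuilds blood for a limited time. Every host carried transplanted marrow of an acute myeloid leukaemia with the Flt3-ITD mutation and without Tet2, so all groups share both lesions. In the WT groups (titled Cre_neg) the host's own marrow surroundings, or niche, made the chemokine CXCL12, and in the KO groups (titled Cre_pos) the host genotype was CXCL12 KO. Hosts received vehicle, or cytarabine and doxorubicin, which block or damage DNA copying, and quizartinib, which blocks the FLT3 kinase. There were 3 WT vehicle libraries (240, 253 and 265), 2 KO vehicle libraries (249 and 275), 3 WT treated libraries (252, 262 and 266) and 3 KO treated libraries (257, 263 and 276). The Cre driver, age, dose and time are not given in the sources used here, and nothing says whether each library is 1 mouse, so p-values measure the spread between these libraries.

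Haem is the iron-porphyrin that carries oxygen in haemoglobin and electrons in cytochromes. Its synthesis begins in the mitochondrion, where an aminolevulinate synthase joins glycine, imported with the help of Slc25a38, to succinyl-CoA; Alas1 is the synthase of most tissues and Alas2 that of red-cell precursors. Alad, Uros and Urod work in the cytosol, where they build the ring and trim its side chains, and Cpox, Ppox and Fech act in the mitochondrion, where ferrochelatase (Fech) inserts the iron. Haem holds down Alas1, whereas Alas2 is switched on by red-cell factors such as GATA1 and KLF1, and its messenger RNA is translated when iron is at hand.

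Sequence upstream of 3 of these genes is shown because their 250 bases before an annotated start hold letters that GATA factors are known to bind. The windows are from RefSeq on GRCm38.p6, which held at least 1 for 8 of the 9 genes (all but Fech) and 11 in all. The letters searched, on both strands, were AGATA or TGATA followed by A or G. Capitals mark the matches, which in these 3 genes read from the opposite strand, so that AGATAA stands as TTATCT in Alas2. The Alas2 and Cpox stretches run from 150 to 51 bases before the start, and the Uros stretch from 78 to 53 bases before its inner start, inside an annotated exon.
Alas2 (chrX:150547267-150547366, + strand): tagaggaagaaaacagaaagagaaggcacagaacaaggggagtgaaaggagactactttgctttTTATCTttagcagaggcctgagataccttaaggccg
Cpox (chr16:58670058-58670157, + strand): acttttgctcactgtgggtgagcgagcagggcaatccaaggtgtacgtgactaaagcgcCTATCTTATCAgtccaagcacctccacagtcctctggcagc
Uros (chr7:133702553-133702578, - strand): tccctcagccTTATCAgtgacagagg
In Alas2 the match lies 86 to 81 bases before the start. In Cpox a pair of matches, AGATAG and its neighbour TGATAA, overlap by 1 base, from 91 to 81 bases before the start. The Uros window holds a further match, AGATAG, 205 to 200 bases before that start, outside the stretch shown. These windows were 3 of the 11, near the share of all 32851 windows of the same length that hold such a match (26.5%). A loose CACCC-type pattern (CCNCNCCC, either strand), which covers letters that KLF factors are known to bind, was in 7 of the 11 windows and in 45.9% of all windows. Its matches in Alad all read CCGCCCCC or CCCCGCCC. The stricter box CCACACCC was in none of the 11 windows and in 3.2% of all windows. The Alas2 window held both a GATA match and the loose pattern. A match describes letters and shows no binding. Uros and Alad are known to have separate housekeeping and red-cell promoters, which a count per gene does not separate.

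Gene counts per library ran from 8.13 to 31.1 M, and each treated library was deeper than any vehicle library. Between 5.98% (KO treated 276) and 30.4% (KO treated 257) of a library's reads fell in no annotated gene, with WT vehicle 240 and 265 at 28.7% and 28.8%. Cxcl12 itself was at 0 to 14.4 CPM (counts scaled to a common library size) in the sorted cells; the deletion lies in the host's niche, so this does not check the labels. Markers of stem and progenitor cells summed to between 556 and 1749 CPM, with at most 1 of 12 at 0 in any library; Kit was at 20.5 to 243 CPM, while Slamf1 was at 0 in the 3 WT vehicle libraries and in KO treated 257. Granulocyte genes, by contrast, summed to between 11013 and 166884 CPM. Summed red-cell markers, 19 genes that include none of the 9, set 4 libraries apart. They were at 17471 CPM in KO vehicle 275 and at 47269, 22090.4 and 107418 CPM in KO treated 257, 263 and 276. In the other 7 libraries they lay between 63.6 and 1149 CPM. These 4 libraries are all from KO hosts, and the part of the red-cell signal in each result below was not tested. In bulk RNA, more cells of a type and more RNA per cell cannot be told apart.

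**Figure D1:**
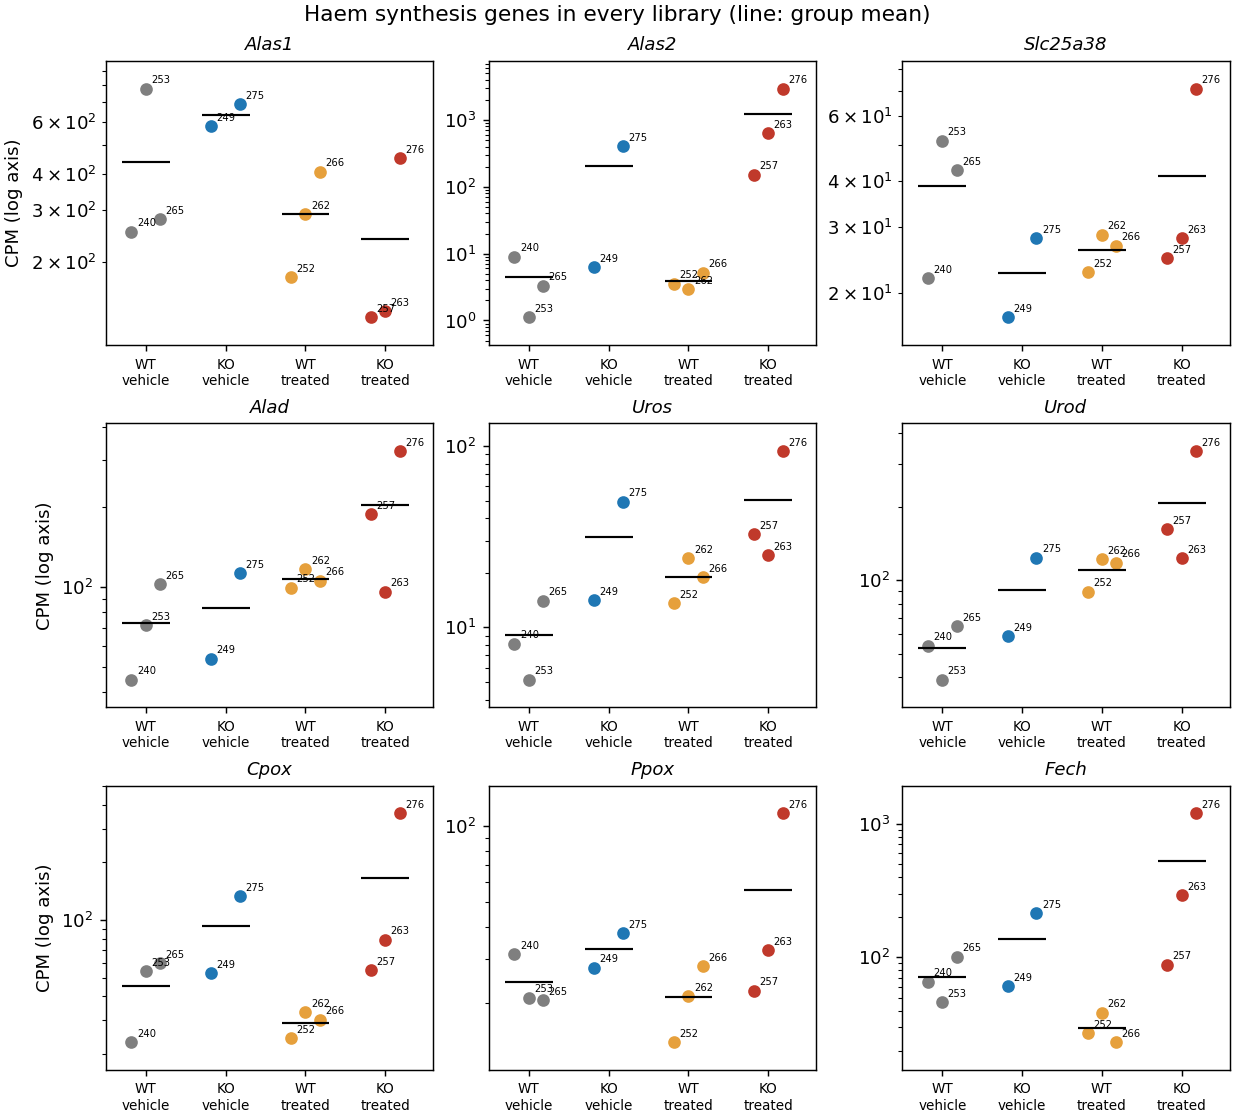
CPM of each of the 9 genes (vertical axis, log scale) in each library, with libraries numbered as in the text and the line at the group mean. KO treated 276 is highest for 8 of the 9 genes, and Alas2 spans 1.11 to 2955 CPM.

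The span of levels differed between genes. Alas2 was 2667 times as high in its highest library as in its lowest, Fech 51.5 times, Uros 18.3 times and Cpox 15.7 times. The other 5 genes spanned 4.15 (Slc25a38) to 8.68 times (Urod). KO treated 276 was the highest library for every gene but Alas1, whose highest library was WT vehicle 253. The 4 libraries rich in red-cell markers were the top 4 for Alas2, Uros and Urod. They held 3 of the top 4 places for Alad, Cpox, Ppox and Fech, 2 for Alas1 and 1 for Slc25a38.

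Among the 9 genes, Alas2, Fech and Cpox had the largest log2 fold changes between KO and WT niches in treated hosts. They are the synthase that opens the pathway in red-cell precursors and 2 of the enzymes that close it. Log2 fold changes, KO over WT, were 8.33 ± 1.65 (SE) for Alas2, 4.15 ± 0.86 for Fech and 2.50 ± 0.69 for Cpox. No gene of the 9 was called at an adjusted p under 0.05 by edgeR's quasi-likelihood test with Benjamini-Hochberg adjustment over all genes, nor was any gene of the table (0%). At an unadjusted p under 0.05, 6 of the 9 genes were higher in KO, against 7.13% of all genes, and none was lower (3.50%). Of the 9, 8 had a positive log2 fold change, against 53.9% of all genes. The median log2 fold change of the 9 was 1.40, and that of all genes 0.10.

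Alas2, the synthase of red-cell precursors, was at 152, 633 and 2955 CPM in KO treated 257, 263 and 276, and at 3.53, 2.93 and 5.22 CPM in WT treated 252, 262 and 266. Group means were 1247 ± 1499 (SD, n = 3) and 3.89 ± 1.18 CPM. The lowest KO library thus stood well above the highest WT library, and the 3 KO libraries differed among themselves far more than the WT libraries did. The Alas2 log2 fold change had an adjusted p of 0.379 by edgeR (unadjusted p = 3.2e-04). Alas1, the synthase of most tissues, went another way. It was at 129, 135 and 452 CPM in KO treated 257, 263 and 276 and at 177, 290.2 and 406 CPM in the WT treated libraries. The groups overlapped, since 276 was the highest of the 6 and 257 and 263 the lowest, and the log2 fold change was -0.29 ± 0.57 (edgeR adjusted p = 0.917). Without 276 it was -1.18, and without WT treated 266 or KO treated 257 it was 0.03 and 0.01.

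Slc25a38, which brings glycine to the synthase, was at 24.7, 28.0 and 71.0 CPM in KO treated 257, 263 and 276. It was at 22.7, 28.7 and 26.7 CPM in the WT treated libraries. Of these 6 libraries 276 alone stood apart. The log2 fold change was 0.66 ± 0.48 (edgeR unadjusted p = 0.192), and -0.02 without that library.

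The cytosolic enzymes had smaller log2 fold changes than Alas2, Fech and Cpox, but larger ones than Alas1 and Slc25a38. Alad, which joins aminolevulinate into porphobilinogen, was at 187, 95.8 and 324 CPM with KO and at 99.0, 116 and 105 CPM with WT niches. KO treated 263 was below all WT treated libraries, so the groups overlapped (log2 fold change 0.92 ± 0.46, edgeR unadjusted p = 0.0697). Uros, which closes the ring, was at 32.6, 25.0 and 93.9 CPM in KO and 13.6, 24.1 and 18.8 CPM in WT treated libraries. Urod, which trims the side chains, was at 162, 123 and 339 CPM in KO and at 89.7, 122 and 118 CPM in WT treated libraries. For both genes the groups did not overlap, but KO treated 263 lay next to WT treated 262. Uros had a log2 fold change of 1.42 ± 0.63 (edgeR unadjusted p = 0.045) and Urod one of 0.92 ± 0.42 (edgeR unadjusted p = 0.0499).

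Of the last 3 enzymes, Cpox and Fech did not overlap between the groups. Cpox, which makes protoporphyrinogen, was at 54.9, 78.9 and 361 CPM in KO and at 24.1, 32.9 and 30.2 CPM in WT treated libraries (edgeR adjusted p = 0.383). Fech was at 88.4, 291 and 1195 CPM in KO and at 27.1, 38.5 and 23.2 CPM in WT treated libraries (edgeR adjusted p = 0.379). Both genes followed Alas2 in the order of the KO libraries, with 257 lowest and 276 highest. Ppox, which oxidises protoporphyrinogen, was at 22.5, 32.4 and 112 CPM in KO and at 14.05, 21.4 and 28.0 CPM in WT treated libraries. Its groups overlapped, because KO treated 257 lay below WT treated 266 (log2 fold change 1.40 ± 0.56, edgeR unadjusted p = 0.0298).

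Libraries of the KO and WT niche thus did not overlap, with KO higher, for 5 of the 9 genes in treated hosts, against 9.71% of all genes, and for none with KO lower (9.56%). Calls turned on the library left out and on the tool. Without KO treated 257, Alas2, Cpox and Fech passed (edgeR adjusted p = 0.0125, 0.0223 and 0.00904), with 1513 of 16341 genes tested called in all. Without KO treated 276 none passed, the median of the 9 fell to 0.40, and 3 genes had an unadjusted p under 0.05; that count was also 3 without WT treated 252 or 262, and 3 under upper-quartile scaling with all libraries. Without 276 the log2 fold changes of Alad, Uros, Urod, Cpox and Ppox were 0.40, 0.59, 0.35, 1.15 and 0.32. The DESeq2 Wald test called the same 3 genes (adjusted p = 1.97e-10, 0.0199 and 2.33e-05 for Alas2, Cpox and Fech) among 249 of 16639 genes. Tests by limma voom with quality weights called them too (adjusted p = 0.0119, 0.0181 and 0.00189), but among 4301 of 16639 genes, so a call there was common over the table.

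**Figure D2:**
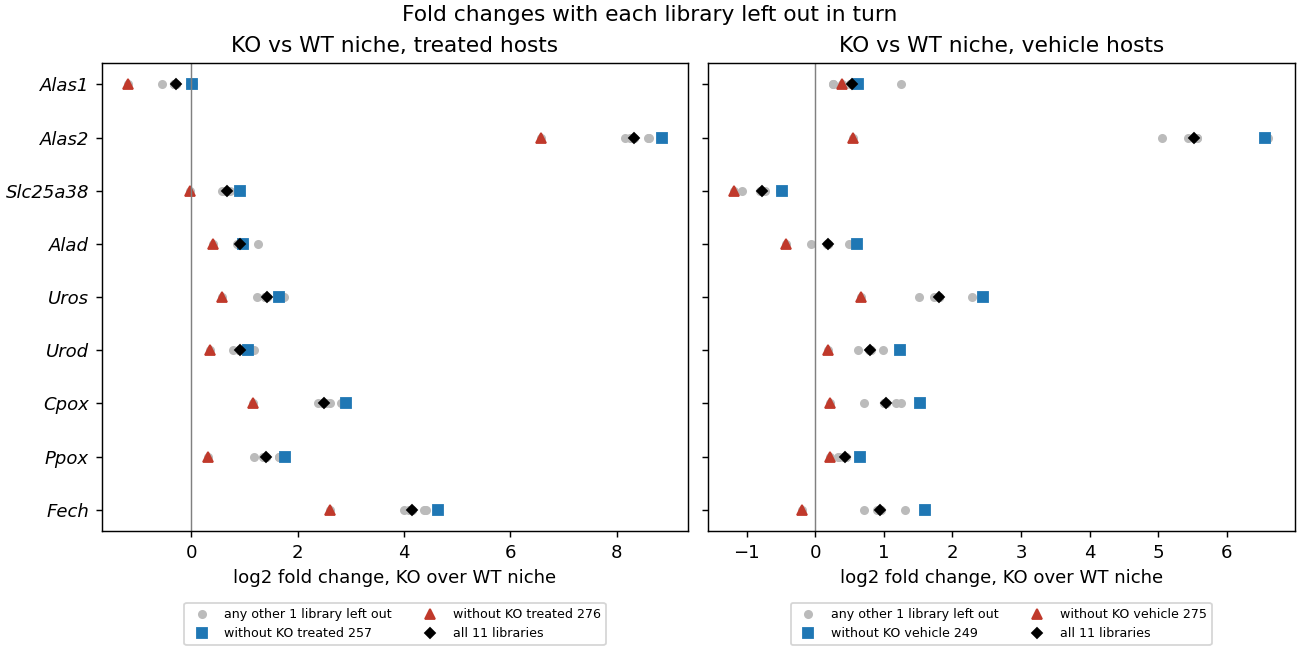
Log2 fold change of each gene, KO over WT niche, in treated (left) and vehicle hosts (right), with all 11 libraries (diamonds) and with each library left out in turn. Leaving out KO treated 276 took Alas2 from 8.33 to 6.57 and Fech from 4.15 to 2.61, and leaving out KO vehicle 275 took Alas2 in vehicle hosts from 5.52 to 0.55.

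In vehicle hosts the KO group held 1 library with a red-cell signal and 1 without. Alas2 was at 6.22 CPM in KO vehicle 249 and at 407 CPM in 275, against 8.98, 1.11 and 3.33 CPM in WT vehicle 240, 253 and 265. The low KO library thus lay within the WT range, and the log2 fold change of 5.52 ± 1.503 (edgeR adjusted p = 0.552) became 0.55 without 275. Uros was at 14.1 and 49.2 CPM in KO and at 8.14, 5.13 and 14.04 CPM in WT vehicle libraries. It was the 1 gene of the 9 whose vehicle groups did not overlap, with KO higher, a count near the share of all genes (13.2%). No gene of the 9 separated with KO lower (7.47%). For Uros, KO vehicle 249 lay next to WT vehicle 265 (log2 fold change 1.81 ± 0.69, edgeR unadjusted p = 0.0233).

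Fech, in vehicle hosts, was at 60.9 and 213 CPM in KO and at 66.0, 46.1 and 101 CPM in WT libraries. Cpox was at 52.6 and 133 CPM in KO and at 23.0, 53.9 and 59.6 CPM in WT libraries. For both, 275 was the highest library and 249 fell among the WT libraries (log2 fold changes 0.95 ± 0.83 and 1.03 ± 0.72). Alas1 was at 580.5 and 690.5 CPM in KO and at 253, 781 and 279.7 CPM in WT vehicle libraries, a log2 fold change of 0.54 ± 0.63. WT vehicle 253 lay above both KO libraries, so the Alas1 groups overlapped. Slc25a38 was at 17.1 and 28.0 CPM in KO and at 21.9, 51.4 and 42.7 CPM in WT vehicle libraries (log2 fold change -0.78 ± 0.55). For Alad, Urod and Ppox the log2 fold changes were 0.19 ± 0.51, 0.79 ± 0.46 and 0.43 ± 0.62. At an unadjusted p under 0.05, 2 of the 9 were higher in KO (Alas2 and Uros), against 4.80% of all genes, and none lower (1.98%), and no gene of the table was called (0%). Log2 fold changes were positive for 8 of the 9 (48.7% of all genes). The median of the 9 was 0.79, against 0.00 for all genes, and 0.21 without 275, when none of the 9 had an unadjusted p under 0.05. Without 275 the log2 fold changes of Uros, Urod, Cpox and Fech were 0.67, 0.19, 0.21 and -0.20. The count at that p was 1 without WT vehicle 240 or 253 and 0 with limma voom. With the percentage of reads in no annotated gene as a covariate in edgeR, 0 were higher and 1 was lower. In that fit 5 of the 9 values were positive. DESeq2 called Alas2 (adjusted p = 0.00175), among 224 of 16639 genes.

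**Figure D3:**
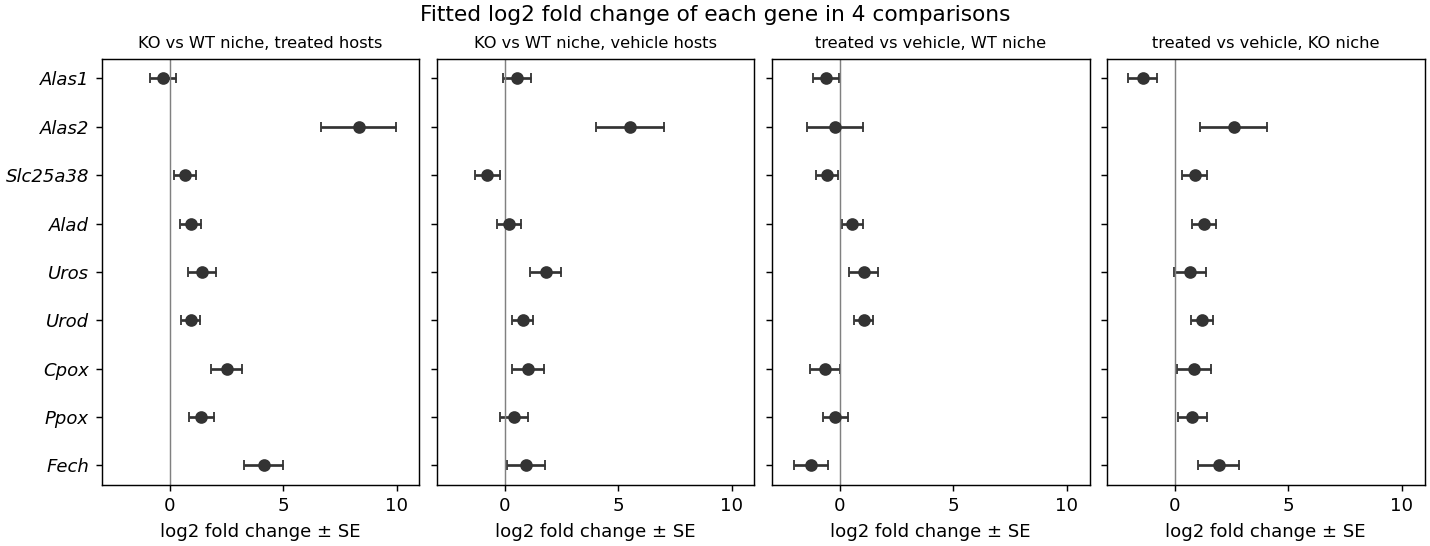
Fitted log2 fold change with its SE (horizontal axis) of each gene in the 4 comparisons of groups, from edgeR. Alas2 reaches 8.33 and 5.52 for KO over WT niches in treated and vehicle hosts, and in treated against vehicle hosts with the WT niche values run from -1.26 (Fech) to 1.06 (Urod).

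Within the WT niche, Urod was higher and Fech lower in every treated library than in any vehicle library, 1 gene of the 9 in each direction. Urod was at 89.7, 122 and 118 CPM in treated and at 53.9, 39.0 and 64.9 CPM in vehicle libraries, and 17.5% of all genes separated with treated higher. Fech was at 27.1, 38.5 and 23.2 CPM in treated and at 66.0, 46.1 and 101 CPM in vehicle libraries, and 10.1% of all genes separated with treated lower. Log2 fold changes, treated over vehicle, were 1.06 ± 0.42 for Urod (edgeR unadjusted p = 0.0277, adjusted 0.227) and -1.26 ± 0.77 for Fech (edgeR unadjusted p = 0.126). With the percentage of unassigned reads as a covariate, that of Fech was -3.08 (edgeR adjusted p = 0.034) and 2100 of 16639 genes were called. That percentage was higher in every WT vehicle library than in any WT treated library. With no shared range, the value of -3.08 cannot be read as a treatment effect apart from that percentage. Alas2 was below 9 CPM in all 6 libraries, with a log2 fold change of -0.21 ± 1.25. For Alas1, Slc25a38, Cpox and Ppox the values were -0.59, -0.57, -0.65 and -0.20, and for Alad and Uros 0.56 and 1.06, all with overlapping libraries. The median of the 9 was -0.21 (all genes 0.09), and 3 of the 9 values were positive (52.6% of all genes). Of the 9, 1 was higher at an unadjusted p under 0.05 (10.1% of all genes) and none lower (8.11%), and no gene of the table was called (0%). These counts of 1 in 9 are near or below the shares of all genes. At that p none of the 9 was higher without WT vehicle 240 or 253 or WT treated 262 or 266.

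Treatment within the KO niche was compared over 3 and 2 libraries. Alas1 was at 129, 135 and 452 CPM in treated and at 580.5 and 690.5 CPM in vehicle libraries. Those groups did not overlap, and the log2 fold change was -1.41 ± 0.63 (edgeR unadjusted p = 0.0456, adjusted 1.0). Alas1 was the 1 gene of the 9 that separated with treated lower, a count near the share of all genes (10.1%). Alad (1.29 ± 0.53) and Urod (1.19 ± 0.48) had unadjusted p-values of 0.0335 and 0.0312 by edgeR, with overlapping libraries: KO treated 263, at 95.8 and 122.9 CPM, lay below KO vehicle 275, at 112 and 123.4 CPM. Alas2 had a log2 fold change of 2.59 ± 1.48 and Fech one of 1.94 ± 0.90; for both genes KO vehicle 275 lay above KO treated 257. Without KO treated 276 these were 0.85 and 0.40, and without KO vehicle 275 they were 7.60 and 3.07. At an unadjusted p under 0.05, 2 of the 9 were higher in treated libraries (2.70% of all genes) and 1 lower (0.974%), with none called in the table (0%). None of the 9 had such a p without KO vehicle 249, in a fit of only the libraries compared, or with the trend on transcript length removed. Without KO treated 276 none was higher and 1 lower, and without 275 there were 4 higher and none lower. The median of the 9 was 0.87, against 0.12 for all genes, and 8 values were positive (56.1% of all genes). No gene of the 9 had treated libraries all above the vehicle ones (12.3%). Without KO treated 276 the log2 fold changes of Cpox, Ppox and Uros were -0.51, -0.29 and -0.14.

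The treatment effect with the KO niche minus that with the WT niche was 3.20 ± 1.18 on the log2 scale for Fech (edgeR unadjusted p = 0.0198, adjusted 0.767). In the WT niche all treated libraries had less Fech than any vehicle library. In the KO niche, treated 263 and 276 exceeded vehicle 249 and 275, while treated 257 lay between those. The Fech interaction was 1.65 without KO treated 276 and 4.31 without KO vehicle 275. Slc25a38 had an interaction of 1.44 ± 0.73 (edgeR unadjusted p = 0.0719) and Cpox one of 1.47 ± 0.99. Fech was thus the 1 gene of the 9 with an unadjusted p under 0.05 for a larger effect in the KO niche (3.04% of all genes); none was smaller there at that p (3.27%), 7 of the 9 values were positive (53.6%), and no gene of the table was called (0%). No gene of the 9 reached that p without KO treated 276, without KO vehicle 249, without WT vehicle 253 and 265 together, or with no filter on low counts.

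Averaged over vehicle and treated hosts, the niche effect was 6.92 ± 1.11 for Alas2, 2.55 ± 0.58 for Fech, 1.77 ± 0.49 for Cpox and 1.61 ± 0.47 for Uros on the log2 scale. Adjusted p-values by edgeR were 0.123, 0.203, 0.297 and 0.322. At an unadjusted p under 0.05, 6 of the 9 were higher in KO (8.10% of all genes), these 4 with Urod and Ppox, none was lower (2.79%), and none of the table was called (0%). Of the 9 values 8 were positive (51.1% of all genes). Alas1 (0.13 ± 0.43) and Slc25a38 (-0.06 ± 0.36) stood nearest 0. DESeq2 called those first 4 genes (adjusted p = 3.46e-13, 0.00144, 0.0357 and 0.0483) among 366 of 16639 genes, whereas limma voom called 13 genes and none of the 9. Without KO vehicle 275 the Alas2 effect was 4.42. The count of 6 was 3 without that library and 3 with limma voom. Without KO treated 257, edgeR called Alas2, Fech and Cpox (adjusted p = 0.0220, 0.0239 and 0.0356), among 1000 of 16341 genes. Without WT vehicle 240 it called Alas2 alone of the 9 (adjusted p = 0.0448), among 108 of 16505 genes. The Alas2 effect was 7.42 without KO vehicle 249.

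Per transcript length, the make-up of the pathway's messages differed between the 4 libraries rich in red-cell markers and the others. On the RPKM scale (CPM divided by transcript length in kilobases), Alas1 made up 25.5% to 64.3% of the summed level of the 9 genes in the WT libraries and KO vehicle 249, and Alas2 at most 2.44%. In KO treated 257, 263 and 276, Alas2 made up 19.0%, 52.5% and 60.4% and Alas1 9.68%, 6.73% and 5.54%. In KO vehicle 275 the synthases were nearly even, at 29.8% for Alas2 and 30.3% for Alas1.

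The RPKM ratio of Alas2 to Alas1 was 1.97, 7.80 and 10.9 in KO treated 257, 263 and 276. It was 0.984 in KO vehicle 275 and between 0.0024 and 0.0591 in the other 7 libraries. The synthase of red-cell precursors thus exceeded its counterpart in the 3 KO treated libraries, and was the lesser message in the remaining 8. Urod held 7.33% to 29.5% of the sum over the 11 libraries, and Alad 7.62% to 27.4%. In KO treated 257 and WT treated 252 each of these cytosolic enzymes held more than either synthase. Ppox held 1.06% to 3.91%, but its longest transcript, used here, has 4411 bases against 1821 for its longest coding one, so its RPKM is low for that choice. The lengths also differ for Alad (1769 and 1247 bases) and Uros (2189 and 1762 bases), and are equal for the other 6 genes.

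**Figure D4:**
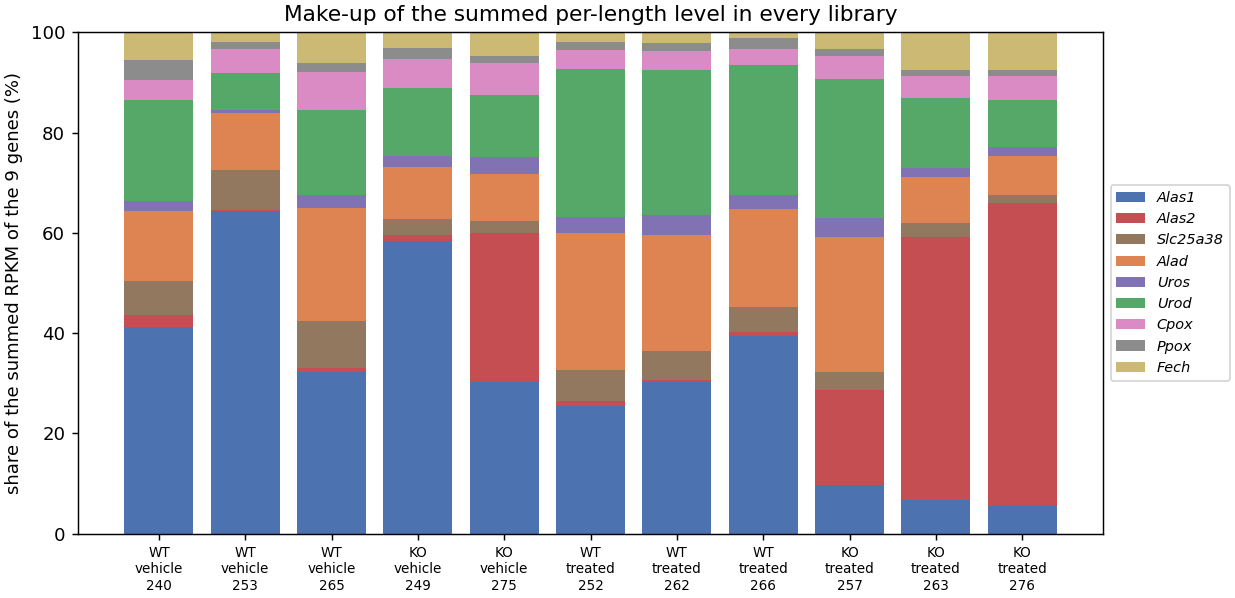
Share (%) of each gene in the summed RPKM of the 9 genes, 1 bar per library. Alas2 fills 19.0% to 60.4% of the bars of the 3 KO treated libraries and 29.8% of KO vehicle 275, and at most 2.44% elsewhere.

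Red-cell markers were compared in the same fit. In treated hosts all 19 had a positive log2 fold change for KO over WT, with a median of 6.53, and 18 of 19 had an unadjusted p under 0.05 and libraries that did not overlap. Over all genes, 53.9% were positive, 7.13% higher at that p and 9.71% without overlap, KO higher. No library from a KO host lacked any of the 19, nor did WT vehicle 240 or WT treated 252 and 262. Of the 19, 3 were at 0 in WT vehicle 253, 1 in 265 and 2 in WT treated 266. Those libraries also had the fewest genes with a count (13589, 14206 and 17207). Globins made most of the sum, with 46504, 21277 and 102932 CPM in KO treated 257, 263 and 276 and 16639 CPM in KO vehicle 275. Alas2 did not keep a fixed ratio to them. It was at 3.27 CPM per 1000 CPM of globin in 257, and at 29.7 in 263, 28.7 in 276 and 24.5 in 275. The other 15 red-cell markers summed to 765 CPM in 257, 814 CPM in 263 and 832 CPM in 275, and to 4486 CPM in 276. Library 257 thus had more globin than 263, a like sum of the other markers and less Alas2 and Fech. Fech was at 1.90 CPM per 1000 CPM of globin in 257, and at 11.6 to 13.7 in the other 3.

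**Figure D5:**
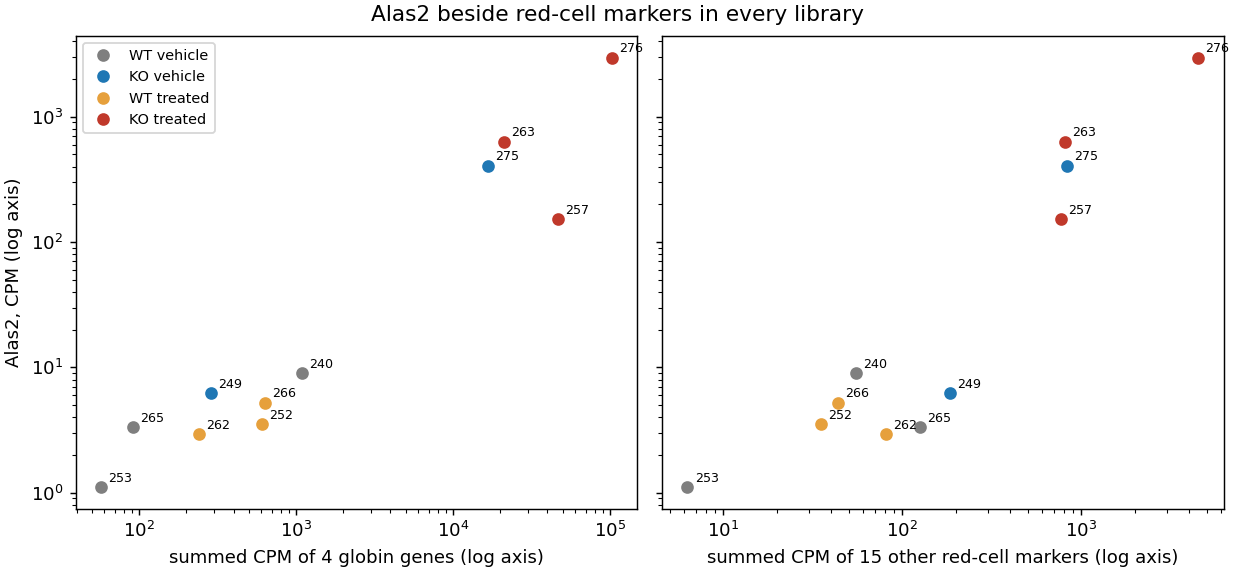
Alas2 (CPM, log axis) against the summed CPM of 4 globin genes (left) and of 15 other red-cell markers (right), 1 point per library. The 4 libraries with Alas2 at 152 CPM or above lie at the right of both panels, and KO treated 257 has less Alas2 than 263 at more globin.

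Markers of other cell types were counted in the same way. Over all genes, 53.9% were positive, 7.13% higher and 3.50% lower at an unadjusted p under 0.05 by edgeR in treated hosts. In treated hosts, 11 of 13 granulocyte genes had a negative log2 fold change for KO over WT (median -1.87), 8 of them at an unadjusted p under 0.05. Of 12 stem and progenitor genes 8 were positive (median 0.39), with 1 higher and 1 lower at that p. Monocyte genes were negative for 4 of 7, B cell genes for 5 of 6, and T and NK cell genes positive for 4 of 6. Mast cell and basophil genes were positive for 4 of 6, stroma and endothelium genes for 6 of 7, and megakaryocyte genes for 6 of 10 tested. Summed megakaryocyte genes were at 741 CPM in KO vehicle 275 and at 24.4 to 72.6 CPM in the other 10 libraries. Counts of positive genes for monocytes and megakaryocytes were near the share of all genes. The part of these cell type differences in the values above was not tested.

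Among 16 further genes of haem and porphyrin transport and mitochondrial iron, 14 were tested, since Abcb6 and Flvcr2 were under 1 CPM in all libraries. In treated hosts 10 of the 14 were positive for KO over WT (53.9% of all genes) and 4 were higher at an unadjusted p under 0.05 (7.13%), none lower (3.50%). Slc25a37, the mitochondrial iron importer of red-cell precursors, was at 38.3, 76.7 and 380.0 CPM in KO and at 9.25, 12.7 and 10.53 CPM in WT treated libraries. The groups did not overlap and kept the order 257, 263, 276 seen for Fech (log2 fold change 3.93 ± 0.82, edgeR adjusted p = 0.379). Abcb10, a mitochondrial transporter that stabilises that importer, had a log2 fold change of 3.03 ± 1.06, and its groups overlapped. Fam210b, a mitochondrial protein of red-cell precursors (2.29 ± 1.02), and Abcg2, a porphyrin exporter (1.91 ± 0.57), had groups that did not overlap. Flvcr1, a haem exporter (1.49 ± 0.72), and Glrx5, an iron-sulphur cluster protein (0.75 ± 0.41), did not reach an unadjusted p under 0.05.

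Of 8 genes that supply glycine or succinyl-CoA, 5 were positive, near the share of all genes (53.9%). At an unadjusted p under 0.05, 2 were higher (7.13% of all genes) and 1 lower (3.50%). Ogdh, a subunit of the enzyme that makes succinyl-CoA, was at 69.0, 220.0 and 281 CPM in KO and at 58.4, 66.7 and 43.0 CPM in WT treated libraries. KO treated 257 lay just above the WT range, with the other 2 far higher (log2 fold change 1.76 ± 0.46, edgeR adjusted p = 0.383). Slc6a9, a glycine transporter of the plasma membrane, was at 0.138, 2.81 and 18.2 CPM in KO and at most 0.258 CPM in WT treated libraries. Suclg1, a succinyl-CoA ligase subunit, had a log2 fold change of -0.75 ± 0.33, with every KO treated library below the WT treated ones. Dlst, Sucla2 and Gcsh had log2 fold changes of 0.49, -0.34 and -0.51.

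Of 14 genes of haem breakdown and sensing, 11 were positive (53.9% of all genes), 3 were higher at an unadjusted p under 0.05 (7.13%) and none lower (3.50%). Blvrb, a biliverdin reductase, was at 450.2, 109 and 564 CPM in KO and at 28.8, 34.6 and 39.2 CPM in WT treated libraries. Here 257 was near 276 and 263 was lowest, unlike for Fech (log2 fold change 3.45 ± 0.77, edgeR adjusted p = 0.379). Hmox1, the inducible haem oxygenase, was at 47.9, 50.6 and 46.0 CPM in KO and at 4.92, 6.23 and 23.6 CPM in WT treated libraries. Its KO libraries were nearly level where Alas2 spread widely (log2 fold change 2.06 ± 0.95, edgeR unadjusted p = 0.0513). Eif2ak1, the haem-regulated kinase that slows globin translation, was at 1.32 ± 0.58, Nrf1 at 0.90 ± 0.38, Lonp1, a mitochondrial protease, at 1.03 ± 0.48 and Hmox2, the constitutive oxygenase, at -0.69 ± 0.34 on the log2 scale. Cox10, Cox15 and Hccs, which make haem a or attach haem to cytochrome c, lay between -0.11 and 0.54, none at an unadjusted p under 0.05.

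Genes most like Alas2 over the 11 libraries, among 8103 ranked by Pearson's r of log2 CPM, included Tent5c (0.990), Apol11b (0.975), Slc4a1 (0.969) and Hbb-bt (0.960). Slc4a1 is an anion exchanger of red cells and Hbb-bt a beta-globin. For Alas2 the libraries fall into 4 high and 7 low, so r describes that split and no p is given. Most like Alas1 were Atp6ap2 (0.950), Gatm (0.950), Tmem38b (0.949), Surf4 (0.947) and Mpo (0.934), the last the myeloperoxidase of granulocyte precursors, itself a haem enzyme. Mpo and Alas1 had both their lowest values in KO treated 257 and 263.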

How the data were processed

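RNA-seq was made from 11 bulk libraries in 4 groups, taken from the sample labels. The authors deposited raw read counts per Ensembl gene, whole numbers with no normalization. The kits were RNeasy Plus Micro, SMARTer v4 and Nextera XT, per the labels' protocols. The submitters' processing notes name bcl2fastq, Trim Galore 0.6.7, STAR 2.7.9a, HTSeq 0.6.7, DESeq2 and GRCm39. Annotation and strand setting are not given in the sources used here. Symbols (52093 of 53700 genes) and lengths came from GENCODE on an earlier build by stable ID.

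Genes were filtered with filterByExpr, TMM-scaled and fitted in 1 model of 4 groups by edgeR 4.0.16 (R 4.3.3; robust quasi-likelihood; biological coefficient of variation 0.783), with Benjamini-Hochberg adjustment within each of 6 contrasts. SE is the absolute log2 fold change over the square root of F. CPM uses TMM-scaled library sizes, and RPKM the longest transcript. Counts carry no molecular identifiers, so counting intervals would cover counting error only. Members and gene lists were chosen with earlier results of these data known. All 9 members were named, with up to 6 genes per further list by smallest p in KO against WT, treated hosts, and 5 genes most like each synthase. Of 20 red-cell markers 19 matched. 2 further genes that these rules or lists name are not reported here. Alternatives were 2 other scalings, 2 filters, DESeq2 1.42.0, limma 3.58.1 voom, no robust option, only the libraries compared, a covariate, a length trend (lowess span 0.3) and left-out libraries.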

Additional observations from a re-analysis of the deposited data

How the results depend on the processing

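Over all comparisons and settings, 45 single-gene log2 fold changes of the 9 genes reversed, 20 became called and 1105 kept direction and call. Genes called in the table, 0 in each comparison of the main test, were 43 (KO over WT, treated), 11 (KO over WT, vehicle), 215 (treatment, WT niche) and 83 (mean niche) with no filter. They were 2 (mean niche) with a mean CPM of at least 10. With the DESeq2 Wald test they were 249 and 224 (KO over WT, treated and vehicle), 1106 and 23 (treatment, WT and KO niche), 58 (interaction) and 366 (mean niche). With limma voom they were 4301 (KO over WT, treated) and 13 (mean niche), and with the covariate 2100 (treatment, WT niche). With 1 library left out they ranged from 0 to 1513 (KO over WT, treated; most without KO treated 257), 0 to 85 (KO over WT, vehicle; most without WT vehicle 240), 0 to 1012 (treatment, WT niche; most without KO treated 257), 0 to 1 (interaction) and 0 to 1000 (mean niche; most without KO treated 257).

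The median log2 fold change of the 9 genes, with 1 library left out, ranged from 0.40 to 1.65 (KO over WT, treated), -0.47 to 0.021 (treatment, WT niche; positive without WT vehicle 240), 0.20 to 1.79 (treatment, KO niche) and 0.14 to 1.35 (interaction). With the covariate it was 0.0028 (KO over WT, vehicle) and -1.19 (treatment, WT niche), and without WT vehicle 253 and 265 it was 0.37 (treatment, WT niche). In the WT niche the covariate has no range shared by treated and vehicle libraries, so values with it there cannot be read as treatment effects alone.

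Single genes reversed as follows. Upper-quartile scaling gave Ppox 0.028 (treatment, WT niche) and Urod -0.066 (interaction), where it moved the median of all genes by 0.23 and -0.15. Voom gave Alad -0.12 and Urod -0.20 (interaction), where it moved the median of all genes by -0.22. The covariate gave Alad -0.073, Ppox -0.17 and Fech -0.73 (KO over WT, vehicle), Uros 0.29 (interaction) and Alas1 -0.10 (mean niche). Removing the length trend gave Alad -0.18 (KO over WT, vehicle) and -0.28 (treatment, WT niche), Uros 0.21 (interaction) and Alas1 -0.32 (mean niche); it moved the median of all genes by -0.33, -0.38, 0.22 and -0.19 in those comparisons. Without WT vehicle 253 and 265, Slc25a38 was 0.16 (KO over WT, vehicle), 0.37 (treatment, WT niche) and 0.40 (mean niche), Alas1 0.33 and Cpox 0.46 (treatment, WT niche), and Alad -0.10 (interaction).

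With 1 library left out, ranges that crossed 0 were, for KO over WT in treated hosts, Alas1 -1.18 to 0.030 and Slc25a38 -0.019 to 0.92, and in vehicle hosts Alad -0.43 to 0.62 and Fech -0.20 to 1.60. For treatment in the WT niche they were Alas1 -0.91 to 0.13, Alas2 -0.69 to 0.86 and Ppox -0.46 to 0.023, and in the KO niche Uros -0.14 to 1.81, Cpox -0.51 to 1.61 and Ppox -0.29 to 1.15. For the interaction they were Uros -1.22 to 0.73, Urod -0.45 to 0.70 and Ppox -0.12 to 1.35, and for the mean niche Alas1 -0.34 to 0.48 and Slc25a38 -0.41 to 0.075. The cause of these changes was not tested. A lone KO vehicle library was taken to vary as the remaining groups do. So was the lone WT vehicle library left without 253 and 265. No paired analysis was possible because no replicate number is shared between groups. With coding transcript lengths, chosen after seeing the data, the ratio of Alas2 to Alas1 was the same in each library, since both lengths are equal for those genes. Among the 9 genes depth limits Alas2 most: its lowest count was 19, in WT vehicle 253.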
